A study of Homo sapiens with 18 samples.

Results

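HCC1806 and HCC1395 are established triple-negative breast cancer (TNBC) cell lines. The comparison described here is the standing difference between the lines, in cells that received no oligonucleotide against the lncRNA *PART1*. It used the 3 arrays of HCC1806 and the 3 arrays of HCC1395 treated for 48 h with a negative control GapmeR, 6 of the 18 arrays of the series. A GapmeR is a modified antisense oligonucleotide with a DNA core, so the control cells were not untreated: all of them carried the control oligonucleotide. The other 12 arrays, 3 for each line and each *PART1* GapmeR, were used as a second set in which the same line difference could be measured. Each line stems from 1 tumor, so a difference between them describes these lines and not a class of tumors. Cell line, culture and any array batch cannot be told apart, since every array of a line carries that line's label. In RNA from whole cultures, fewer cells of a type and less RNA per cell cannot be told apart.

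Breast epithelial cells hold together through tight junctions and desmosomes, and their keratins tell basal from luminal layers. Carcinoma cells can shift from this state to a mesenchymal one with vimentin filaments, fibronectin and other matrix proteins, a shift driven by repressors of the ZEB, SNAIL and TWIST families. The miR-200 family and miR-205 repress ZEB1 and ZEB2, which in turn repress the miR-200 genes. TNBC is defined by low estrogen and progesterone receptors and no amplified HER2, and includes lines of basal, epithelial character and lines of mesenchymal character.

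The mature miRNAs of this circuit are shown because *MIR205* had one of the largest differences between the lines, and because the miR-200 genes did not all differ alike. Also shown, though not part of the circuit, are miR-143-3p and miR-100-5p, whose genes were lower in HCC1806. Bases 2 to 8 of each sequence, the seed that pairs with targets, are in capitals, read 5′ to 3′ from RefSeq (GRCh38.p14).
miR-205-5p: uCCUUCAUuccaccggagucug
miR-200c-3p: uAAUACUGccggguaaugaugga
miR-200b-3p: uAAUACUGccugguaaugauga
miR-429: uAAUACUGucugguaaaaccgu
miR-141-3p: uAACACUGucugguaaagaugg
miR-200a-3p: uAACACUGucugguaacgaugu
miR-143-3p: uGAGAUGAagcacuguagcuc
miR-100-5p: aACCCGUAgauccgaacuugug
The miRNAs miR-200c-3p, miR-200b-3p and miR-429 share 1 seed, and miR-141-3p and miR-200a-3p share another that differs from it. *MIR200C* and *MIR141* lie beside each other on chromosome 12, while *MIR200B*, *MIR200A* and *MIR429* lie together on chromosome 1.

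The values are log2 signals of transcript clusters, each a set of probes read together for a gene or a stretch of it. Signals ran from 0.41 to 13.58, with array medians between 4.07 and 4.10. A gene was called dim in a line when all 3 of its arrays lay below their own array's median, since the files give no detection call, and folds against a dim gene are folds of normalized signal only. Control arrays of the same line correlated at r = 0.985 to 0.987 over all transcript clusters (6 pairs), and those of different lines at 0.924 to 0.927 (9 pairs). The median SD of a gene over 3 arrays was 0.15 in HCC1806 and 0.13 in HCC1395, against a median absolute difference between lines of 0.34. No source used here states that replicates were grown apart. The p-values therefore describe how far arrays of a line differed, perhaps only technically, and the number of arrays limits the precision.

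Across the 14884 genes with a platform symbol, 6055 (40.7%) differed between the lines (limma, called at a Benjamini-Hochberg adjusted p below 0.05 over 53617 transcript clusters). Of these, 2925 genes (19.7%) were higher in HCC1806 and 3130 (21.0%) were lower, and the median difference over all genes was -0.01 on the log2 scale. At least 2-fold differences were called for 1338 genes (8.99%) higher and 1413 (9.49%) lower in HCC1806. At least 16-fold differences were called for 78 (0.524%) and 62 genes (0.417%). The arrays of the lines did not overlap for 55.3% of all genes, and 23.3% were dim in both lines. Since calls were this frequent, each gene list is to be read against these shares, and a list near them did not stand apart from other genes. Among the 11915 protein-coding genes alone, 45.2% were called.

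**Figure D1:**
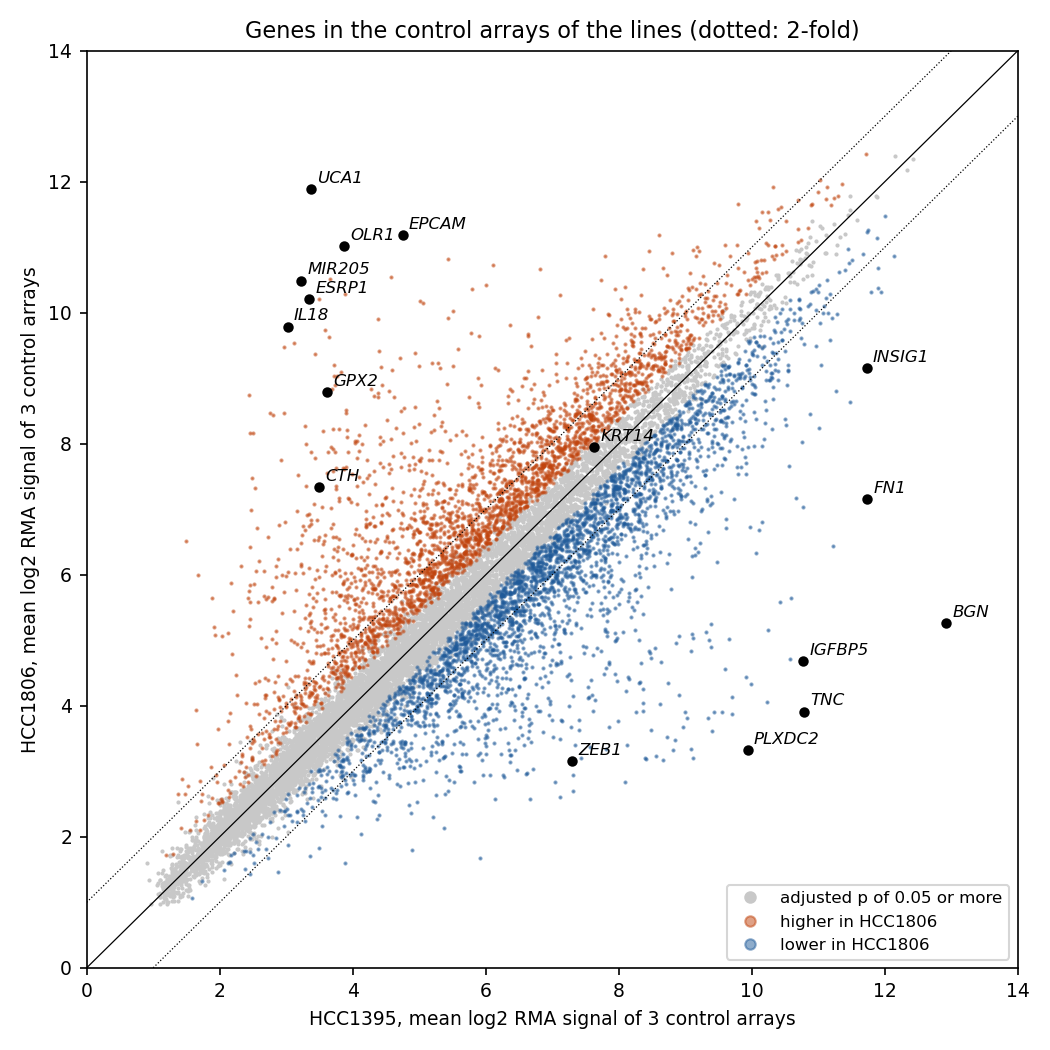
Mean log2 RMA signal of the 3 HCC1395 control arrays (x axis) against that of the 3 HCC1806 control arrays (y axis), 1 point a gene, with called genes in color, 2-fold limits dotted and selected genes in black. UCA1, OLR1 and MIR205 lie far above the diagonal and BGN, TNC and PLXDC2 far below it, while KRT14 lies close to it.

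Epithelial adhesion genes were higher in HCC1806, most of them several-fold. Of 28 measured genes of epithelial junctions and their regulators, 25 were higher in HCC1806 and 0 were lower (89.3% called). Their median difference was 2.14, against -0.01 over all genes. *EPCAM*, the epithelial adhesion molecule, had log2 signals of 11.18, 11.09 and 11.27 in the HCC1806 arrays and of 4.92, 4.34 and 4.97 in the HCC1395 arrays. It was 86.5-fold higher in HCC1806 (log2 difference 6.44, SE 0.18, adjusted p = 1.1e-06), and the arrays of the lines lay far apart. *DSP*, desmoplakin, which ties desmosomes to keratin filaments, had signals of 10.23, 10.22 and 10.38 against 3.80, 3.88 and 3.96. The difference for *DSP* was 6.40 (SE 0.12, adjusted p = 5.51e-07), and the gene was dim in HCC1395. *ESRP1*, a splicing regulator of epithelial isoforms, had signals of 10.20, 10.07 and 10.36 against 3.52, 3.58 and 2.94 (difference 6.86, SE 0.19, adjusted p = 1.01e-06).

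Transcription factors of the epithelial state followed the junction genes. *EHF*, an ETS factor of epithelia, had signals of 10.58, 10.41 and 10.67 in HCC1806 and of 4.40, 4.67 and 4.67 in HCC1395, 62.7-fold apart. *GRHL2*, a grainyhead factor that activates junction genes, had signals of 8.42, 8.37 and 8.77 against 3.95, 3.94 and 3.83, a difference of 4.61. The arrays of each line lay close together for both factors. Its relatives differed less, *GRHL3* by 1.99 and *GRHL1* by 0.17, which was not called, and the repressors *OVOL1* and *OVOL2* differed by 1.41 and 0.68. Among the claudins, which seal tight junctions, the differences were 5.53 for *CLDN1*, 4.45 for *CLDN7*, 2.07 for *CLDN4* and 0.66 for *CLDN3*. Occludin, *OCLN*, had signals of 6.54, 6.73 and 6.94 against 4.30, 4.35 and 4.33, and *CRB3*, an apical polarity protein, 6.62, 6.84 and 7.09 against 4.97, 4.84 and 4.95. These were differences of 2.41 and 1.93, smaller than those of *EPCAM* and *DSP* but again without overlap. Of the other members, *JUP* (plakoglobin) differed by 3.75, *ST14* (matriptase) by 4.09 and *LSR*, of tricellular junctions, by 3.04, while *ELF5* (0.50) and *TJP3* (0.51) were not called.

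Promoters of 3 of these junction genes are shown because ZEB and SNAIL repressors bind the E-box CAGGTG, and their own genes differed between the lines in the opposite direction. Each run covers 250 bases before and 50 after the gene's start in RefSeq (GRCh38.p14, plus strand), with CAGGTG or its reverse complement CACCTG in capitals.
DSP (chr6:7541421-7541720): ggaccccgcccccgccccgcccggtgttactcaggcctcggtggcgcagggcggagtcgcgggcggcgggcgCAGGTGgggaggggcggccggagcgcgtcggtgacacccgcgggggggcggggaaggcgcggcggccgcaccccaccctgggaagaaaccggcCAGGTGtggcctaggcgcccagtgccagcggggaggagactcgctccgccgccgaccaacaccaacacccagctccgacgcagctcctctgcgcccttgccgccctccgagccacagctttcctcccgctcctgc
CRB3 (chr19:6464021-6464320): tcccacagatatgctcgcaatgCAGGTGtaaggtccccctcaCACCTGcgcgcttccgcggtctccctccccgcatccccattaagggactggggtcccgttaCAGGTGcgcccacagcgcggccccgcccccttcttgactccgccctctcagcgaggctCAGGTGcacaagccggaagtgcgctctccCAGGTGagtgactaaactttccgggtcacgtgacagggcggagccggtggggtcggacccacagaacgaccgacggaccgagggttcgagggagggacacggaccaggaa
OCLN (chr5:69492297-69492596): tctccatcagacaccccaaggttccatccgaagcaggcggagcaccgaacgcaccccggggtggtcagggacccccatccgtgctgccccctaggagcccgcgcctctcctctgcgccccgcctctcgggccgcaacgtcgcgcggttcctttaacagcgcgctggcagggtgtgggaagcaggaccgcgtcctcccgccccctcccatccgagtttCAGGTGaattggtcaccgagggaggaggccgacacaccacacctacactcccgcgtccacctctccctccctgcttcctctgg
The window held 2 such E-boxes for *DSP*, 5 for *CRB3* and 1 for *OCLN*, so all genes shown hold the motif. The windows of *EHF* (difference 5.97), *CLDN1* (5.53), *CLDN7* (4.45), *JUP* (3.75) and *LSR* (3.04) held 0. *CLDN3* (0.66) and *ELF5* (0.50, not called) held 1 each. Whether the E-box bears on the line difference was not tested. Of the 18 epithelial list genes in the promoter table, 8 (44.4%) held at least 1, against 20.6% of all 27305 promoters and 3 of 13 mesenchymal list genes (23.1%). Over genes of any function the share was 21.3% of the 1019 promoters of genes at least 2-fold higher in HCC1806 and 16.6% of the 1086 of genes at least 2-fold lower. The grainyhead site AACCGGTT was in 0 of the 18 epithelial promoters and 0.117% of all promoters, and the AP-1 site TGANTCA, with either strand counted, in 1 of 18 and 7.76%. A match is a run of letters in this window and not a measured binding site, and the counts are a description without a test.

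HCC1395 showed the reverse, with the mesenchymal genes. Of 20 measured genes, 17 were lower in HCC1806 and 0 were higher (85.0% called), with a median difference of -1.97. Vimentin, *VIM*, had 3 transcript clusters that gave differences of -6.60, -6.03 and -4.19. On the cluster with the highest mean over the 6 arrays the signals were 5.63, 4.97 and 4.77 in HCC1806 and 9.11, 9.14 and 9.67 in HCC1395 (SE 0.25, adjusted p = 2.13e-05). All clusters had the same direction, without overlap of the arrays. The platform number of the cluster with these signals falls outside those of *GATA3* and *PLXDC2*, which lie on either side of *VIM* on chromosome 10. That cluster may therefore read the strand opposite *VIM*, which was not checked further. The larger differences, -6.60 and -6.03, came from the other clusters. *ZEB1*, the repressor of epithelial genes, had signals of 3.57, 2.77 and 3.09 in HCC1806, where it was dim, and of 7.48, 7.25 and 7.16 in HCC1395, a 17.7-fold difference. Its relative *ZEB2* had signals of 3.52, 3.81 and 4.05 against 6.06, 6.08 and 6.32 (difference -2.36). *TWIST1* differed by -2.14, *SNAI1* by -1.58 and *SNAI2* by -1.27. *SNAI2* was bright in both lines, at 10.78, 11.14 and 10.69 in HCC1806 and 12.06, 12.26 and 12.11 in HCC1395, and so was not a gene that HCC1806 lacked. *TWIST2* (-0.58), *MSN* (-0.22) and *THY1* (0.43) were not called.

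**Figure D2:**
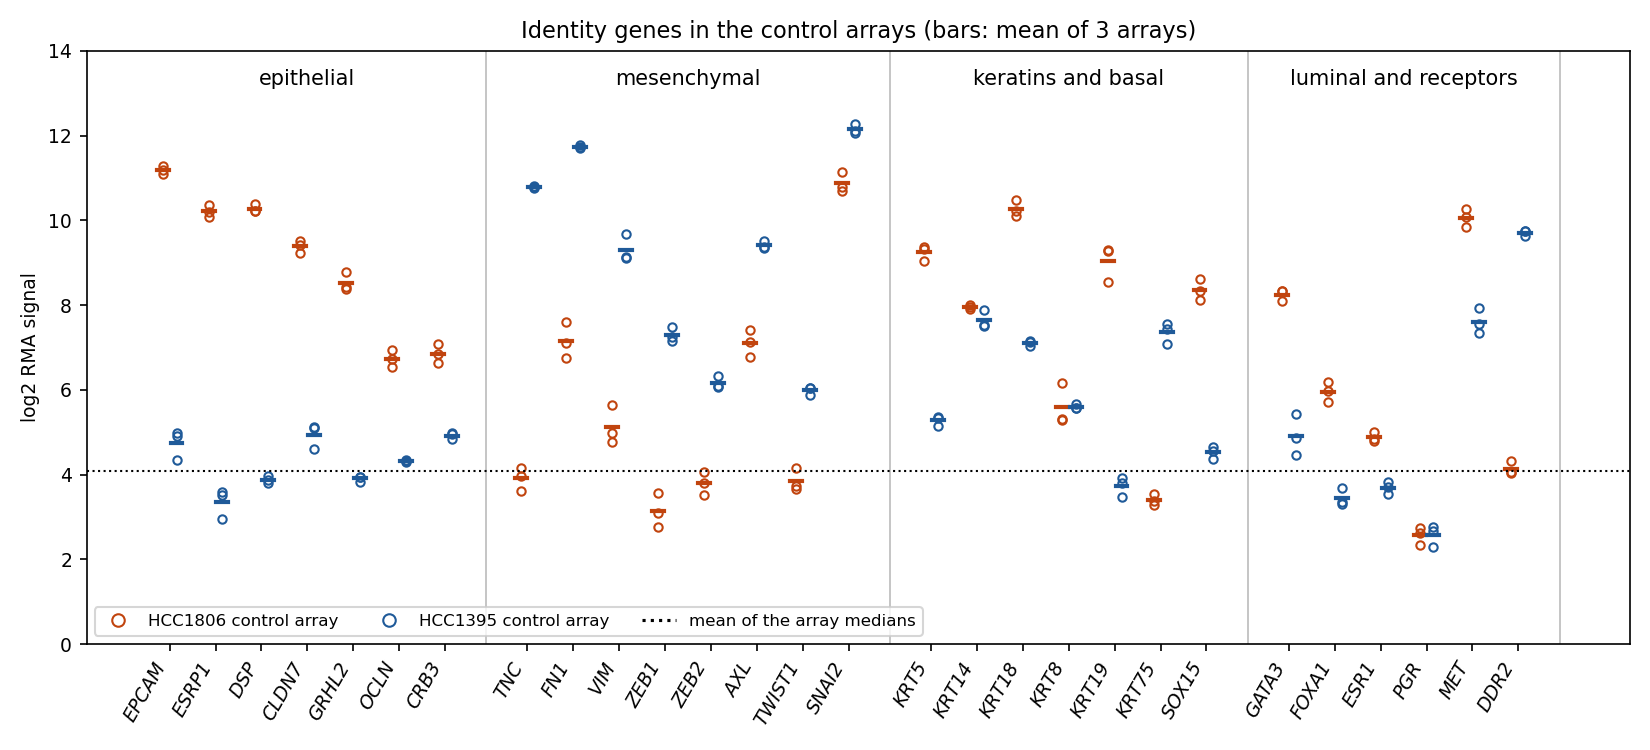
Log2 RMA signal (y axis) of identity genes in the 3 HCC1806 and 3 HCC1395 control arrays (open circles), with the mean of each line as a bar and the mean of the array medians dotted. EPCAM, ESRP1 and DSP lie above 10 in HCC1806 and at or below 5 in HCC1395, TNC and FN1 show the opposite order, and KRT14, KRT8 and PGR sit at like levels in both lines.

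The 12 protein-coding genes with the lowest differences included several that encode matrix proteins and others that do not. *BGN*, which encodes the matrix proteoglycan biglycan, had signals of 5.61, 4.75 and 5.42 in HCC1806 and of 12.88, 12.94 and 12.94 in HCC1395, the largest negative difference over all genes (-7.66, SE 0.22, 202-fold, adjusted p = 1.1e-06). Tenascin C, *TNC*, had signals of 4.15, 3.97 and 3.60 against 10.78, 10.81 and 10.76 (difference -6.87). Fibrillin 1, *FBN1*, had signals of 4.15, 4.70 and 4.19 against 9.92, 10.07 and 9.99. In each case the HCC1395 arrays agreed more closely than the HCC1806 arrays, which lay near or a little above the array median. Fibronectin, *FN1*, differed by -4.58 but stood at 7.11, 7.61 and 6.74 in HCC1806, well above that median. The other protein-coding genes among the 12 lowest were *PLXDC2* (-6.62), *TMEM47* (-6.17), *IGFBP5* (-6.09), which binds insulin-like growth factors, *DOCK11* (-5.91), *EYA1* (-5.87), *GPC6* (-5.82), a glypican, *HMCN1* (-5.79), a matrix immunoglobulin protein, *KRCC1* (-5.75) and *A2M* (-5.65), a protease inhibitor. Lysyl oxidases, which cross-link collagen, were lower in HCC1806 as well, with differences of -3.00 for *LOXL2* and -1.12 for *LOX*.

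The microRNA genes were measured through transcript clusters at their loci, so these values follow the primary transcript and not the mature miRNA. *MIR205* had signals of 10.63, 10.32 and 10.52 in HCC1806 and of 3.23, 3.28 and 3.16 in HCC1395. The difference was 7.26 (SE 0.13, 154-fold, adjusted p = 5.51e-07), the second largest positive one over all genes. The chromosome 12 pair of the miR-200 family was higher in HCC1806 too. *MIR200C* had signals of 3.73, 4.08 and 4.70 against 2.30, 2.41 and 2.06, and *MIR141* 4.24, 4.78 and 5.02 against 3.23, 2.84 and 2.94, with differences of 1.92 and 1.68. The chromosome 1 trio did not pass the test: *MIR200B* differed by 0.35 (SE 0.15), *MIR200A* by 0.17 (SE 0.14) and *MIR429* by 0.10 (SE 0.19), the last 2 dim in both lines. The called genes *MIR200C* and *MIR141* lie together and have different seeds, and the difference between the loci was not itself tested. Of 28 measured genes in the miRNA list, 5 were higher and 6 lower in HCC1806 (39.3% called, close to the share over all genes). Those lower included *MIR143* (-2.01), *MIR100* (-1.67), dim in both lines, and its host *MIR100HG* (-1.35), *MIR22HG* (-2.11) and *MIR31HG* (-1.49).

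The keratins did not all follow the epithelial genes. *KRT18* and *KRT8* form the filament pair of simple epithelia, and on the clusters used only the first differed. *KRT18* had signals of 10.22, 10.48 and 10.11 against 7.16, 7.04 and 7.13 (difference 3.15, SE 0.13), and its second transcript cluster differed by 2.09. The platform number of the first cluster falls outside those of *KRT8*, *KRT5* and other chromosome 12 genes. Whether that cluster reads *KRT18* itself or a copy elsewhere was not resolved. *KRT8* had signals of 5.31, 6.17 and 5.29 in HCC1806 and of 5.67, 5.56 and 5.58 in HCC1395, which overlapped (difference -0.01, SE 0.24). *KRT19* was dim in HCC1395 and 39.9-fold higher in HCC1806, at 9.27, 8.54 and 9.31 against 3.46, 3.79 and 3.91, and *KRT7* was 6.73-fold higher. The basal keratin pair split in the same manner. *KRT5* had signals of 9.36, 9.04 and 9.33 against 5.36, 5.15 and 5.33 (difference 3.96, SE 0.14, adjusted p = 2.06e-06), while its partner *KRT14* had 7.91, 7.99 and 7.95 against 7.53, 7.50 and 7.88 (difference 0.32, SE 0.14, adjusted p = 0.145). *KRT75*, a keratin of hair follicles, went the other way, at 3.37, 3.55 and 3.29 against 7.43, 7.09 and 7.55. Keratin genes are close copies of each other, and signal shared between them was not resolved here. Of 16 basal genes in all, 9 were higher and 1 lower (62.5% called), among them *FAT2* (3.98), *DSG3* (3.93), a desmosomal cadherin of stratified epithelia, *SOX15* (3.84), *PKP1* (3.31), *BNC1* (3.30) and *TRIM29* (2.15).

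Genes of squamous differentiation were higher in HCC1806 for 20 of 40 measured and lower for 1 (52.5% called, against 40.7% over all genes). Their median difference was 0.60, and the higher count was 17 to 19 in fits that left out an array. The mucosal keratins *KRT4* and *KRT13* varied most among the HCC1806 arrays, at 8.01, 6.88 and 9.54 and at 6.36, 5.95 and 8.59, with replicate 3 highest in both. In HCC1395 they stood at 4.28, 4.26 and 3.73 and at 3.30, 3.00 and 3.17. *SCEL*, sciellin of the cornified envelope, showed the same high replicate, at 4.79, 4.51 and 6.30 against 2.28 or less in HCC1395. The lines did not overlap for these 3 genes, and the differences were 4.05 (SE 0.59), 3.81 (SE 0.61) and 3.29 (SE 0.44). *CSTA*, a cystatin of the same envelope, was even across arrays at 7.64, 7.85 and 7.47 against 3.90, 3.85 and 3.96. Kallikreins 5, 7, 8, 10 and 11, proteases of the shedding epidermis, were higher in HCC1806 by 2.96, 0.94, 0.86, 2.08 and 0.60 (*KLK5*, *KLK7*, *KLK8*, *KLK10*, *KLK11*). Among members that were not called, *IVL* (involucrin) differed by 0.38, *KRT1* by 0.39, *S100A7* by 0.02 and *DSG1* by -0.14, and 7 of the 40 genes were dim in both lines.

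Contractile genes of myoepithelium were lower in HCC1806 for 5 of 8 measured (62.5% called, against 40.7% over all genes). Caldesmon, *CALD1*, had signals of 5.32, 5.64 and 5.42 against 8.31, 8.16 and 8.23, and *MYLK*, the kinase of myosin light chains, 3.53, 3.18 and 3.08 against 5.68, 5.64 and 5.77. *TPM1* was lower on both of its transcript clusters (-2.30 and -2.03), *TPM2* differed by -0.61, and *MME* by -0.56, which was no longer called in 4 of the 6 fits that left out an array (adjusted p up to 0.0887). *TAGLN* (-0.34) was not called.

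Hormone receptors and luminal factors were called as often as other genes. Of 22 measured genes of the list, 7 were higher and 2 lower in HCC1806 (40.9% called, median difference 0.08). *GATA3*, the main factor of the luminal lineage, had signals of 8.32, 8.10 and 8.32 in HCC1806 and of 5.44, 4.45 and 4.87 in HCC1395, a difference of 3.33 (SE 0.24). *FOXA1*, which opens chromatin for steroid receptors, had 5.96, 5.70 and 6.18 against 3.30, 3.68 and 3.36. *ESR1*, the estrogen receptor, was low in both lines, at 5.0, 4.85 and 4.80 against 3.82, 3.54 and 3.70, but 2.29-fold higher in HCC1806. *PGR*, the progesterone receptor, was dim in both, at 2.73, 2.34 and 2.63 against 2.76, 2.30 and 2.66. *AGR2* (2.93) and *ERBB3* (2.67) were higher in HCC1806, and the prolactin receptor *PRLR* was lower (-2.51). Several targets of estrogen signaling did not pass the test, *GREB1* at -0.08, *TFF1* at 0.17 and *XBP1* at 0.01. The count of lower genes was 1 or 2 in fits that left out an array.

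Growth factor receptors were divided evenly, with 7 of 21 tyrosine kinases higher and 7 lower in HCC1806 (66.7% called, against 40.7% over all genes). *DDR2*, a receptor for fibrillar collagen, had signals of 4.32, 4.03 and 4.07 against 9.75, 9.74 and 9.64, a 47.3-fold difference. *AXL* had 7.40, 7.12 and 6.77 against 9.38, 9.34 and 9.50, and *ROR1* (-1.94), *FGFR1* (-1.91), *EPHB4* (-1.68) and *FGFR2* (-1.63) shared its direction. *MET*, the receptor for hepatocyte growth factor, went the other way at 10.26, 10.08 and 9.85 against 7.93, 7.55 and 7.35. *KIT* (2.04), *EPHA2* (1.89), *FGFR3* (1.48) and *IGF1R* (1.44) were higher in HCC1806 with it. *EGFR* was bright in both lines and 1.54-fold higher in HCC1806, at 9.51, 9.39 and 9.42 against 8.79, 8.86 and 8.80.

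Stemness markers showed no single direction, with 4 of 18 higher and 4 lower (44.4% called, near the share over all genes). *CD44*, the hyaluronan receptor, and *CD24* are used together to sort breast cancer stem cells, and both were higher in HCC1806. *CD44* had signals of 11.22, 11.45 and 10.92 against 8.62, 8.67 and 8.55, and *CD24* 8.77, 8.78 and 9.34 against 6.87, 7.21 and 7.14. *SOX9* was lower at 7.15, 7.42 and 6.50 against 10.65, 10.67 and 10.98, as were *NRP1* (-3.49), *CXCR4* (-1.56) and *STAT3* (-1.33). *MYC* (1.05) and *KLF5* (1.41) were higher. The pluripotency genes *POU5F1* (-0.24), *NANOG* (-0.11) and *SOX2* (-0.16) were not called.

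Of 14 measured tumor suppressors that are often lost, 8 were lower and 1 higher in HCC1806 (64.3% called, against 40.7% over all genes). *SMAD4*, the shared mediator of TGF-β signals, had signals of 8.05, 7.86 and 8.0 against 10.03, 10.09 and 9.99 (4.19-fold, adjusted p = 1.43e-05). *RB1*, which holds back entry into S phase, had 8.77, 8.78 and 8.76 against 10.11, 10.01 and 9.91. Both stayed bright in HCC1806. *MTAP*, of the methionine salvage pathway, was the member higher in HCC1806, at 6.67, 6.89 and 6.99 against 3.98, 4.38 and 4.24. Its neighbor *CDKN2A* was dim in both lines, at 3.12, 2.94 and 2.77 against 2.91, 3.25 and 2.91, and was not called. The other called members differed by -0.96 (*FHIT*) to -0.44 (*NF1*).

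**Figure D3:**
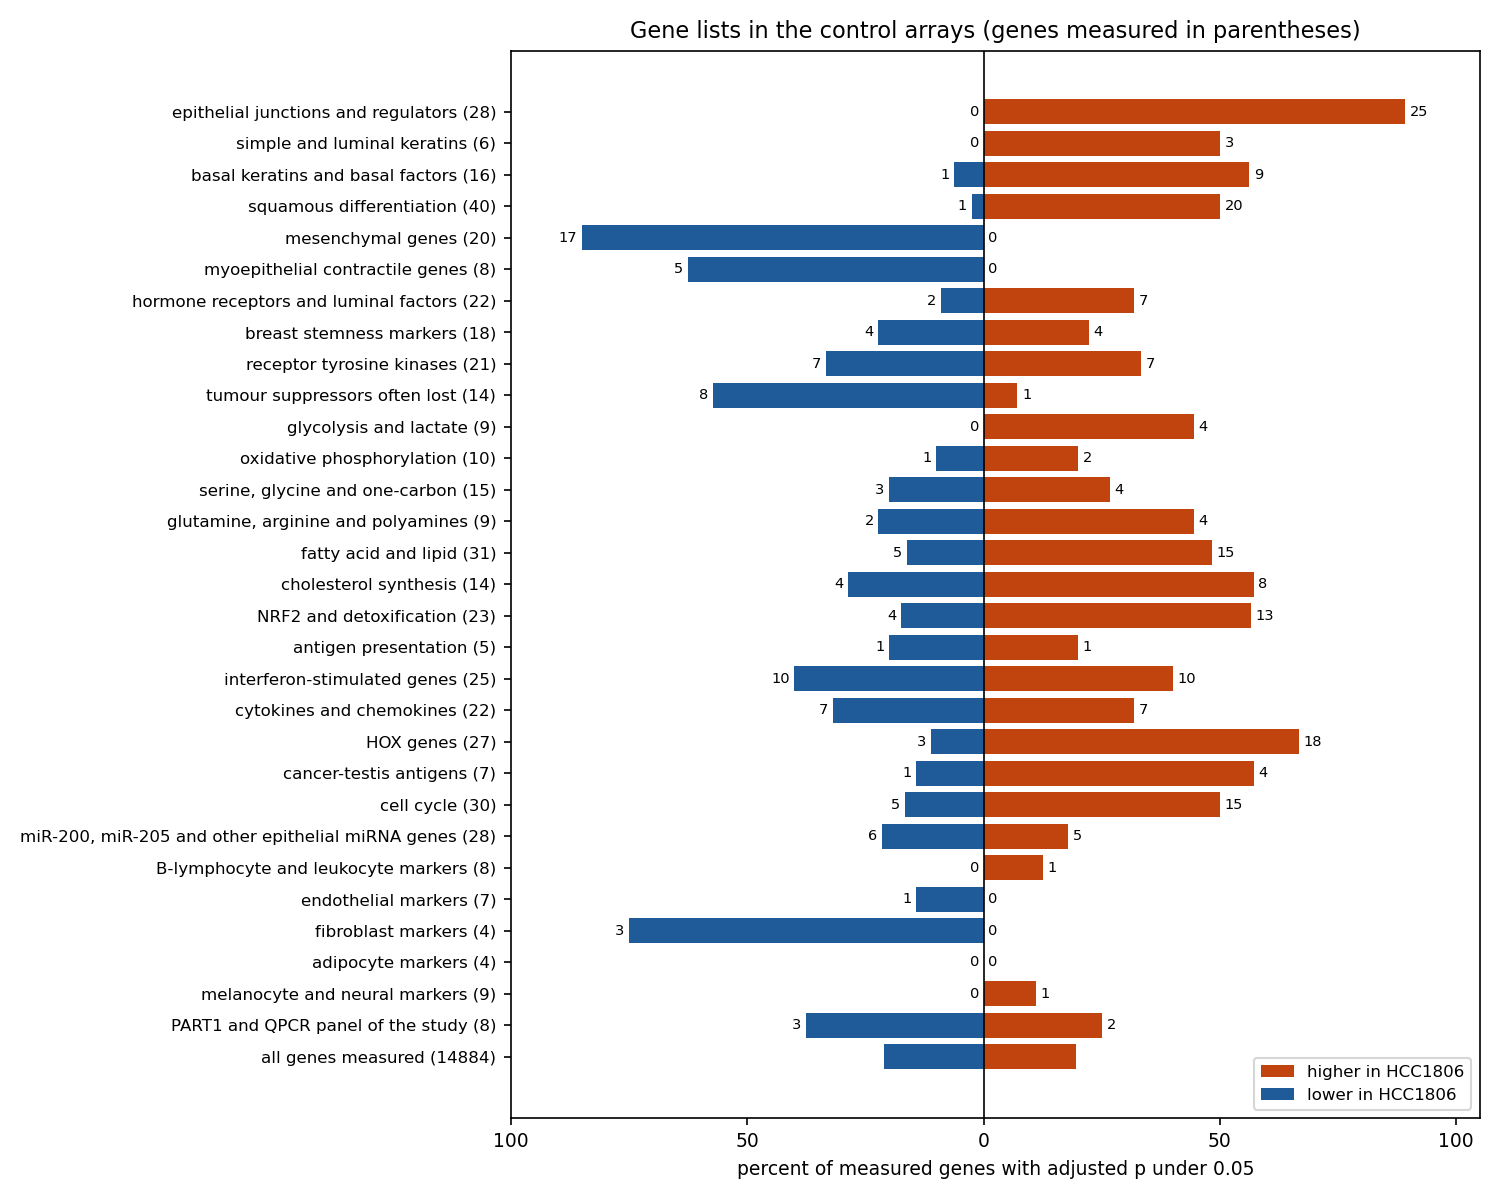
Percent of the measured genes of each list that were called higher (right) or lower (left) in HCC1806 in the control arrays, with the number of genes beside each bar and the share over all genes in the bottom row. The epithelial list reaches 25 of 28 to the right and the mesenchymal list 17 of 20 to the left, while stemness markers and tyrosine kinases are even.

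Of the 15 measured genes of serine, glycine and one-carbon metabolism, 4 were higher and 3 lower in HCC1806. This was 46.7% called, near the 40.7% over all genes. *CTH*, cystathionine gamma-lyase, which makes cysteine from cystathionine, had signals of 7.40, 7.12 and 7.50 in HCC1806 and of 3.30, 3.42 and 3.75 in HCC1395, where it was dim (14.4-fold, adjusted p = 4.68e-06). *AHCY*, upstream of it in the methionine cycle, had 8.22, 8.32 and 8.32 against 6.19, 6.37 and 6.56. *PHGDH*, the first enzyme of serine synthesis, was 1.69-fold lower in HCC1806, at 7.55, 7.53 and 7.64 against 8.27, 8.19 and 8.54. Its difference was called in the GapmeR 2 arrays (-0.55) but not in the GapmeR 1 arrays (-0.37). *ASNS*, asparagine synthetase, differed by -1.90, while *PSAT1* (-0.30) and *PSPH* (-0.01) were not called.

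Glutamine and polyamine genes gave 4 higher and 2 lower of 9 measured (66.7% called). *GLUL*, glutamine synthetase, had signals of 7.58, 7.22 and 7.32 against 5.40, 5.40 and 5.34, and *ODC1*, the first enzyme of polyamine synthesis, 9.27, 9.94 and 9.58 against 7.63, 7.60 and 7.55. Both were about 4-fold higher in HCC1806 (3.98 and 4.01), and spermine synthase *SMS* was 2.42-fold higher. The urea cycle enzymes *ASS1* (-0.62) and *ASL* (-0.44) were the lower ones. Their count ranged from 0 to 2 in fits that left out an array, and *GLUD1* (0.69) lost its call in 4 of these 6 fits. In glycolysis, 4 of 9 genes were higher and 0 lower (44.4% called, near the 40.7% over all genes). *LDHB* was 2.50-fold and *LDHA* 1.96-fold higher, and *PGAM1* 2.81-fold, at 8.55, 8.92 and 9.16 against 7.15, 7.28 and 7.73. *PGAM1* lies on chromosome 10, but the platform number of its single cluster falls near those of chromosome 12 genes. Whether that cluster reads *PGAM1* itself or a copy elsewhere was not resolved. *PGK1* (0.47) was at the edge of the test with an adjusted p of 0.0449, and *GAPDH* (-0.07) and *HK2* (-0.02) were not called. Respiratory chain genes were called for 3 of 10, none of them 2-fold apart. Their largest difference was 0.58, for *COX7B*, which also lost its call in some of these fits.

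Lipid genes were called for 20 of 31, 15 higher and 5 lower in HCC1806 (64.5%, against 40.7% over all genes, median difference 0.50). The largest differences in the list were those of *PTGES* (3.70), *HSD17B2* (3.33), an enzyme of steroid metabolism, and *PTGS2* (2.78). *PTGES*, which makes prostaglandin E2, had signals of 7.74, 8.17 and 8.42 against 4.32, 4.62 and 4.30, and *PTGS2*, the inducible cyclooxygenase upstream of it, 6.64, 7.82 and 6.47 against 4.14, 3.93 and 4.53 (6.87-fold). *ALOX5*, of leukotriene synthesis, was 5.46-fold higher. *PPARG* (1.82) and the lipid droplet coat *PLIN2* (2.13) were higher too. Long-chain acyl-CoA synthetases *ACSL1* (-2.20) and *ACSL4* (-1.83) and the desaturase *SCD5* (-1.94) were lower, and fatty acid synthase *FASN* (0.16) and *SCD* (-0.16) were not called. In cholesterol synthesis, 12 of 14 genes were called (85.7%), with enzymes and their regulators in opposite directions. Of these, 8 were higher and 4 lower in HCC1806, and the higher count was 6 or 7 in fits that left out an array. The enzymes *MVK* (1.49), *DHCR7* (1.36), *IDI1* (1.29), *MSMO1* (1.29), *HMGCS1* (1.24) and *EBP* (1.11) were higher in HCC1806, except *PMVK* (-1.07). The regulators were lower: *INSIG1*, which retains the SREBP factors in the endoplasmic reticulum, had signals of 9.28, 9.17 and 9.01 against 11.71, 11.72 and 11.77, *SREBF1* differed by -1.33 and *SREBF2* by -1.04.

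Antioxidant and detoxification genes gave 13 higher and 4 lower of 23 (73.9% called, against 40.7% over all genes, median difference 0.63). *GPX2*, a glutathione peroxidase of epithelia, had signals of 8.56, 8.92 and 8.90 against 3.00, 3.72 and 4.12, a 36.2-fold difference. *GPX3* (3.01), *GSTM3* (2.62), *GPX4* (1.53), *GSTP1* (1.36), *TXN* (1.18) and *SRXN1* (1.00) followed it. *HMOX1*, heme oxygenase, was lower at 6.41, 6.83 and 6.03 against 8.19, 8.08 and 8.58, as were *NNMT* (-1.94 and -0.96 on its clusters) and *TKT* (-0.90). *HMOX1*, *TXN* and *SRXN1* are known targets of the factor NRF2. *HMOX1* was lower in HCC1806 and the others were higher, as were 13 of the 23 genes of the list. The activity of NRF2 was not tested.

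Interferon-stimulated genes were called for 20 of 25 (80.0%, against 40.7% over all genes), with 10 in each direction. In fits that left out an array, 9 were higher and 7 or 8 lower. *MX2*, an antiviral GTPase, was 12.1-fold higher in HCC1806 at 7.38, 7.47 and 7.20 against 3.21, 4.02 and 4.03, with *IFITM2* (2.19), *XAF1* (1.95), *IFIT3* (1.85) and *ISG15* (1.17). *IFI44L* was 6.80-fold lower at 4.39, 4.67 and 4.30 against 7.46, 6.99 and 7.22, with *IRF9* (-2.00), a subunit of the factor that activates this family, *HERC5* (-1.32) and *IFITM1* (-1.25). Cytokines were split too, 7 higher and 7 lower of 22 (63.6% called), but the lower count was 3 to 5 whenever an array was left out. *IL18*, a cytokine of epithelia, had signals of 10.09, 9.62 and 9.66 against 3.19, 2.90 and 2.99 (109-fold, adjusted p = 7.69e-07). The chemokines *CCL28* (3.36), *CXCL16* (2.57) and *CXCL8* (2.29) were higher in HCC1806, and *CCL2* (-2.73) and *CXCL12* (-2.62), known from stroma, were lower. *CD274*, which encodes PD-L1, was 3.00-fold higher at 5.48, 6.05 and 5.41 against 3.81, 4.32 and 4.06, and *B2M* (-0.03) was not called.

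Homeobox genes of the HOX clusters record the position of a cell's origin along the body axis. Of 27 measured, 21 were called, 18 higher and 3 lower in HCC1806 (77.8%, against 40.7% over all genes, median difference 1.01). *HOXD13* had signals of 7.05, 7.65 and 7.39 against 3.97, 2.94 and 2.97. *HOXB2* (3.28), *HOXB5* (3.04), *HOXD10* (2.78) and *HOXB6* (2.43) came next. *HOXB5*, *HOXB6*, *HOXB7*, *HOXB8* and *HOXB9* were called higher without a gap, whereas the lower genes all lay in HOXC, *HOXC9* (-1.06), *HOXC4* (-0.59) and *HOXC8* (-0.47). HOXC itself was mixed: *HOXC11* (1.01) and *HOXC13* (0.59) were called higher, and *HOXC10* (0.19) and *HOXC12* (0.47) were not called. The cell cycle genes gave 15 higher and 5 lower of 30 (66.7% called), mostly by less than 2-fold. *CCNE1*, cyclin E1, had signals of 8.66, 9.28 and 8.71 against 6.56, 6.44 and 6.63 (5.06-fold), with *CDC6* (1.5), *AURKB* (1.42) and *CDK1* (1.32). *CDK6* (-1.18) was lower, and *MKI67*, bright in both lines, was not called (-0.16). Of 7 cancer-testis genes (71.4% called), *CTAG2* (1.70), *CTAG1A* (1.33), *CSAG1* (0.72) and *DDX43* (0.50) were higher and *PRAME* (-1.16) lower. The higher count was 2 to 4 in fits without an array. *CTAG1A* and *CTAG2* are near copies, and their signals could not be separated.

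Of the other protein-coding genes among the 12 highest in HCC1806, *OLR1*, a receptor for oxidized lipoprotein, led at 11.38, 10.73 and 10.94 against 3.70, 3.97 and 3.94 (142-fold, adjusted p = 8.07e-07). *UPK1B*, a uroplakin of urothelium, had 10.49, 10.21 and 10.87 against 4.12, 3.11 and 3.75. *MMP1*, interstitial collagenase, was less even at 9.59, 10.99 and 10.04 against 4.0, 2.51 and 3.97, a difference of 6.71 (SE 0.48). *MAB21L1* (6.52), *ADIRF* (6.32), *LVRN* (6.15) and *MPZL2* (5.99), an adhesion protein, completed this set with *EPCAM*, *ESRP1*, *DSP*, *IL18* and *EHF*.

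Among non-coding genes, *UCA1*, a lncRNA first described in bladder carcinoma, had the largest positive difference over all genes. Its signals were 12.04, 11.81 and 11.84 in HCC1806 and 3.84, 3.29 and 2.99 in HCC1395, 367-fold apart (difference 8.52, SE 0.22, adjusted p = 8.07e-07). A second transcript cluster of *UCA1* gave 4.49. The lncRNA *LINC02582* (6.42) and the pseudogenes *NBEAP1* (5.72) and *AADACP1* (5.02) followed, beside *MIR205*. The lowest non-coding genes were *LOC100128288* (-3.56), *LOC100506474* (-3.25), *TMCC1-DT* (-3.22), *LINC01550* (-3.12) and *LINC01003* (-3.11). Of 1398 lncRNA genes 28.0% were called, 8.80% higher and 19.2% lower in HCC1806, against 22.5% and 22.7% of 11915 protein-coding genes. LncRNA genes were dim in both lines for 47.4%, protein-coding genes for 16.7%, and the part of signal level in this contrast was not tested. *PART1* itself was dim in HCC1806 at 3.88, 3.69 and 3.94 and stood at 5.45, 5.76 and 5.61 in HCC1395, a difference of -1.77 (SE 0.14, adjusted p = 6.26e-05). Of the genes the study followed by QPCR, *BICC1* was lower in HCC1806 at 3.95, 3.23 and 2.80 against 8.81, 8.95 and 8.69, *SUPT3H* differed by -1.29, *CDKAL1* by 0.66, and *ZHX2* (-0.18) was not called.

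Called genes were spread unevenly over the chromosomes. On chromosome 7, 260 of 701 genes (37.1%) were lower in HCC1806 and 14.4% higher, against 21.0% and 19.7% over all genes. Chromosome 10 had the opposite balance, with 207 of 611 genes (33.9%) higher and 12.3% lower. Chromosomes 11, 12 and 6 leaned the same way as chromosome 10, with 28.9%, 27.1% and 27.0% higher, and chromosomes 18, 14, 22 and 16 leaned toward lower levels, with 33.2%, 32.6%, 30.3% and 28.9%. Neighboring genes differed in the same direction in places that were picked after their values were seen, where neighbors are consecutive among the measured protein-coding genes with a symbol and other genes may lie between them. On chromosome 2, 16 such genes in a row from *CRIM1* to *MORN2* were all higher in HCC1806 (median difference 1.37), and on chromosome 16, 12 from *TXNDC11* to *PDXDC1* were all lower (-1.36). On chromosome 6, *HACE1* (3.98), *LIN28B* (3.85), *POPDC1* (3.45), *POPDC3* (3.40) and *PREP* (3.97) differed by like amounts. For *PREP*, a peptidase, the signals were 7.97, 7.98 and 8.09 against 4.32, 4.51 and 3.30, and for *LIN28B*, a repressor of let-7 miRNAs, 6.65, 6.55 and 6.51 against 2.47, 2.78 and 2.90. On chromosome 18, *SMAD4* was 1 of 8 lower genes in a row from *MBD1* to *MEX3C*, and *SMAD2* (-1.42) and *SMAD7* (-3.96) lay in another run of 7. On chromosome 7, *EZH2* (-2.13), the methyltransferase of Polycomb, was in a run of 10 from *CUL1* to *ZNF746*. On chromosome 5, 10 protocadherin beta genes from *PCDHB7* to *PCDHB15* were lower, with *PCDHB10* at -5.52 and *PCDHB14* at -5.48. The protocadherin genes are near copies, so their values are not independent of each other. Copy number was not measured in these arrays.

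**Figure D4:**
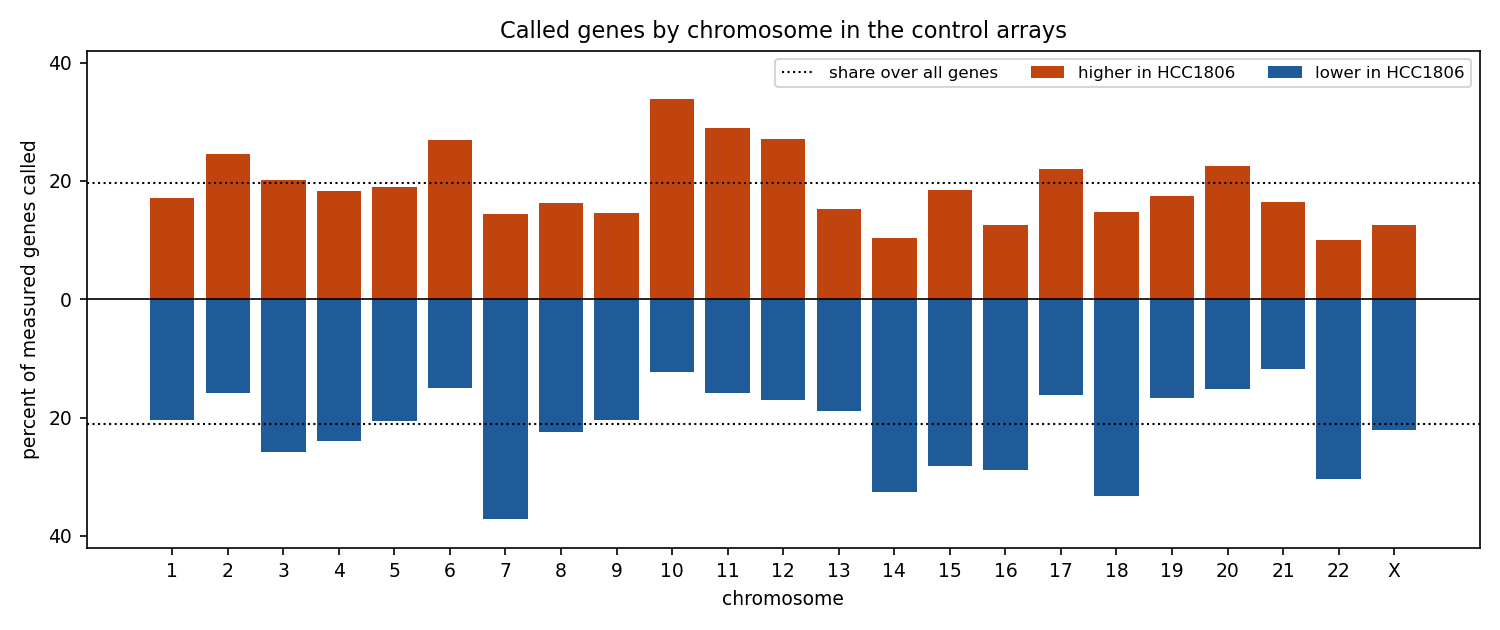
Percent of the measured genes of each chromosome (x axis) called higher (up) or lower (down) in HCC1806 in the control arrays, with the shares over all genes dotted. Chromosome 7 reaches 37.1% downward and chromosome 10 reaches 33.9% upward.

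Markers of cell types outside the tumor lines were checked for RNA from other cells. Of 8 measured leukocyte markers, 1 was called, *CD68*, a protein of lysosomes, which was 14.5-fold higher in HCC1806 at 9.41, 9.69 and 9.24 against 5.66, 5.52 and 5.57. The others differed by -0.45 to 0.00, and *CD53*, a pan-leukocyte marker, stood at 2.80, 2.38 and 2.44 against 2.95, 3.10 and 2.59. Adipocyte markers were dim in both lines for 4 of 4 and not called. Of 7 endothelial markers only *ERG* (-0.45) was called, and it lost its call in 4 of the 6 fits without an array. Of the 4 measured fibroblast markers, *PRRX1* (-3.46), *DCN* (-1.80) and *LUM* (-1.19) were lower in HCC1806, and these are also in the mesenchymal list, while *THY1* (0.43) was not called. Of 9 melanocyte and neural markers, 1 was called, *MBP* (0.59). Whether other cells took part in their signal was not tested.

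The same line difference was then taken from arrays that the comparison above did not use. In the 6 *PART1* GapmeR 1 arrays, 5863 genes (39.4%) differed between the lines, and in the 6 GapmeR 2 arrays 5933 (39.9%). Of the 6055 genes called in the control arrays, 5100 (84.2%) were called again in the same direction in the GapmeR 1 arrays and 5126 (84.7%) in the GapmeR 2 arrays, with 0 and 1 called in the opposite direction. Over all 14884 genes, which are not independent of each other, the differences correlated with those of the control arrays at r = 0.966 and 0.965. *EPCAM* differed by 6.28 and 6.51 in these arrays, *MIR205* by 7.36 and 7.29, *TNC* by -6.60 and -6.62, and *CTH* by 4.16 and 4.21. Across all 18 arrays, 5519 genes (37.1%) had no overlap between the 9 arrays of one line and the 9 of the other. A test of whether the line difference itself changed between control and GapmeR arrays called 0 of 53617 transcript clusters in limma (smallest adjusted p = 0.434), with 3540 at an unadjusted p under 0.05, where 2681 would be met by chance. *PART1*, the target of these oligonucleotides, differed by -1.77 in the control arrays and by -1.07 and -0.83 in the GapmeR arrays, and *BICC1* by -5.49, -3.81 and -4.21.

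**Figure D5:**
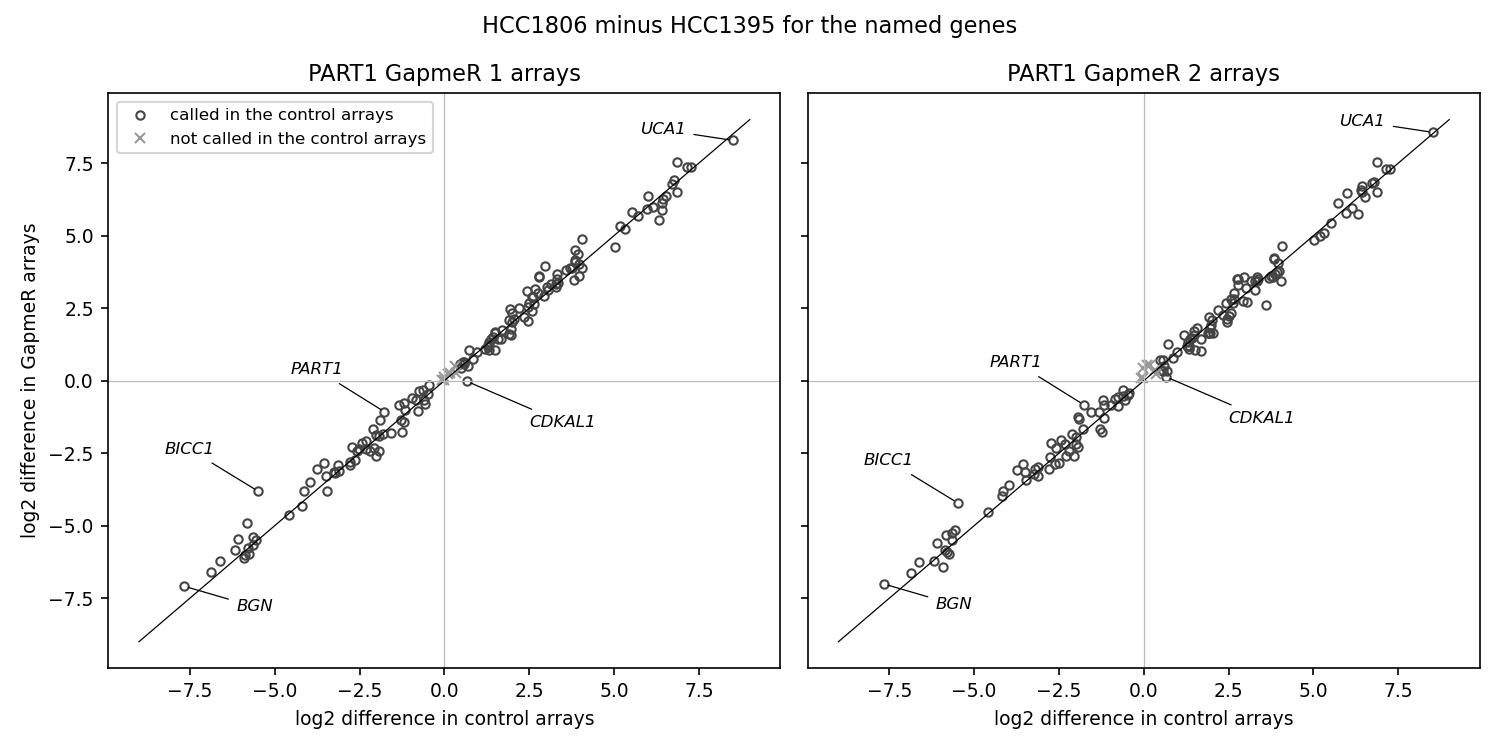
Log2 difference HCC1806 minus HCC1395 of the 156 named genes in the control arrays (x axis) against the same difference in the PART1 GapmeR 1 (left) and GapmeR 2 arrays (right), with the line of equality. Most genes lie near the line, and BICC1 and PART1 lie above it in both panels.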

How the data were processed

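The platform was the Affymetrix Human Gene 2.0 ST array, hybridized with total RNA. The deposited values are log2 signals of 53617 transcript clusters that the authors made by RMA (background correction, quantile normalization and median polish) in the Affymetrix Expression Console (tool named per the labels, without a version). RMA sets all arrays to one distribution, so differences are relative to the other genes. The sources used here name no genome build. No normalization was added. The platform table named 16098 transcript clusters and left 37519 unnamed, and all named ones matched a RefSeq gene ID (GRCh38.p14). For the 779 of 14884 genes with several clusters, the one with the highest mean over the 6 control arrays was used. Whether a cluster lies at its gene's own locus and strand was not checked, also for genes with a single cluster. For *KRT18*, *VIM* and *PGAM1*, the platform numbers of the clusters alone were compared with those of other genes.

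The lines were compared by a two-sided moderated test on the 6 arrays (lmFit, then eBayes, of limma 3.58.1 under R 4.3.3). P-values were adjusted by Benjamini-Hochberg across the whole array and called below 0.05. The test was also tried on simulated arrays whose means and spread were taken from the control arrays. The same contrast was fitted in the GapmeR arrays, and its change over all 18 arrays. Named genes are the 12 highest and 12 lowest protein-coding genes and 5 and 5 non-coding genes, called and without overlap, up to 5 called genes a list, and 23 identity genes, of which 17 were measured. Other genes are named as members of a list or run, chosen after their values were seen. The comparison and the 30 gene lists were chosen with earlier results of these data known. Of 1072 miRNA genes, 998 matched the sequence table. Python 3.11.15 with pandas 2.3.3 served for tables and matplotlib 3.10.9 for plots.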

Additional observations from a re-analysis of the deposited data

How the results depend on the processing

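No result reversed under any alternative. Leaving out each control array in turn gave 2510 to 2646 genes higher and 2669 to 2844 lower in HCC1806, and 1331 to 1396 and 1405 to 1455 at 2-fold. The GapmeR 1 arrays gave 2232 to 2568 and 2514 to 2793, and the GapmeR 2 arrays 2318 to 2504 and 2566 to 2772. Members of lists, summed, were 173 to 179 higher and 91 to 98 lower, chromosome 7 had 226 to 247 genes lower and chromosome 10 had 187 to 198 higher. Testing against a 2-fold null in place of no difference, which asks more by construction, left 630 genes higher and 622 lower, 80 and 40 list members, 72 chromosome 7 genes lower and 42 chromosome 10 genes higher. Quantile normalization again, one median for all arrays, no dim clusters, a variance trend, robust fitting, all 18 arrays, a test without shared spread, adjustment over named clusters alone and the study's 1.6-fold threshold kept each count within 1.5 times. Same-numbered control arrays did not deviate together (correlations -0.00498, -0.0202 and -0.00235), and with the replicate block 2650 genes were higher and 2813 lower. For the change between control and GapmeR arrays, limma with replicate blocks within each line called 0 transcript clusters. Its smallest adjusted p was 0.128, against 0.434 without blocks. At an unadjusted p under 0.05 there were 4016 clusters, against 3540. Of 149 named genes called, 43 lost their call under the 2-fold null and 9 under another alternative: *ASS1*, *COX7B*, *CSAG1*, *DDX43*, *ERG*, *GLUD1*, *LUM*, *MME* and *PGK1*. The files hold no detection calls, so folds of genes near an array's median signal are limited by background.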
